A study of Homo sapiens with 27 samples.

Results

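The CC chemokines described here are 10 genes, CCL2, CCL3, CCL3L3, CCL4, CCL4L2, CCL5, CCL7, CCL8, CCL20 and CCL22, out of 20453 genes counted in each of the study's tables. They were chosen by name, as the rows whose Ensembl identifiers map to these symbols, and each of the 10 was found in both tables. All 10 passed the filter on low counts in the footprints, and 9 passed it in RNA, where CCL7 did not. CCL3 and CCL3L3 are near-identical copies, as are CCL4 and CCL4L2. How reads that match both copies were assigned is not given in the sources used here, so the split within each pair is uncertain.

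The study measured messenger RNA by poly(A) RNA-seq and ribosome footprints by ribosome profiling, which sequences the stretches of mRNA that ribosomes protect from nuclease. Both came from THP-1, a human monocytic leukaemia line, and the RNA was taken from the same cells that were profiled. Cells of every group were first made macrophage-like with the phorbol ester PMA at 10 ng/ml for 24 h and then moved to medium without stated PMA. The 3 treatments, each for 3 h, were vehicle (ethanol in PBS), lipopolysaccharide (LPS, a bacterial cell wall component) at 100 ng/ml, and the same LPS with the synthetic glucocorticoid dexamethasone at 1 µM (LPS+Dex). No group received dexamethasone alone. Each treatment had 4 RNA libraries and 5 footprint libraries, numbered by replicate. Whether replicates were grown as separate cultures is not stated in the labels. Every p-value thus rests on the scatter among these libraries, which may be technical. All come from 1 cell line, which stands in for macrophages.

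Chemokines are small secreted proteins that draw leukocytes along a gradient through receptors on the target cell, and in the CC family the first conserved cysteines sit side by side. Macrophages that sense LPS through Toll-like receptor 4 switch on many chemokine genes through NF-kB and interferon-regulated factors. Glucocorticoids bind the receptor encoded by NR3C1, which can lower transcription of inflammatory genes and raise that of proteins that shorten the life of their mRNAs.

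The libraries held 18966683 to 30665116 counts in RNA and 11477048 to 26063343 in footprints. Levels are in CPM, a gene's counts scaled to a common library size, with library sizes scaled by edgeR's TMM method, and they are not corrected for gene length, so they are compared within a gene and not between genes. All 10 monocyte and macrophage markers checked, CD14 and CD68 among them, averaged above 1 CPM over all libraries of each assay. Of the T cell markers, CD3D, CD3E and CD2 averaged below 1 CPM and TRAC above it, and in RNA no B cell, epithelial or erythroid marker averaged above 1 CPM. The summed T cell markers ran from 101 to 126 CPM with vehicle and from 17.4 to 19.9 CPM with LPS in RNA. The fibroblast marker COL1A1 and the endothelial marker VWF also averaged above 1 CPM over all RNA libraries. The 3 fibroblast markers summed to 5.57 to 8.13 CPM with vehicle, 7.24 to 10.8 CPM with LPS and 21.96 to 26.29 CPM with LPS+Dex in RNA. The 2 endothelial markers summed to 11.3 to 13.5, 6.68 to 7.69 and 8.31 to 8.84 CPM. The part of these markers in the results was not tested. In bulk samples, fewer expressing cells and less RNA per cell cannot be told apart.

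The footprint libraries numbered 4 stood apart from the others of their treatment. Over all tested genes, the log2 deviation from the other libraries had an SD of 0.69 (vehicle), 0.76 (LPS) and 0.79 (LPS+Dex) in these 3, against 0.24 to 0.38 in the other footprint libraries. They lay more than 2-fold above the median of the other libraries for 5 chemokines with vehicle, 6 with LPS and 7 with LPS+Dex. Of all tested genes, 12.2%, 16.2% and 18.5% lay more than 2-fold away in either direction. That share was taken on log2 CPM, with a prior count of 2, from the mean of the other libraries. The chemokine counts and the share are thus not the same measure. RNA libraries numbered 4 showed no chemokine more than 2-fold above. Every footprint result is therefore given with these libraries, without them, or with the replicate number as a block wherever that changes a call. Leaving library 4 out of only 1 of the groups compared sets a group with it against a group without it. Such values show how far a result rests on that library and are no further support for it.

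In GRCh38.p14, 8 of the 10 genes lie on chromosome 17 by RefSeq. CCL2 (chr17:34255285-34257203), CCL7 (chr17:34270221-34272242) and CCL8 (chr17:34319435-34321402) are neighbours. CCL5 (chr17:35871491-35880360), CCL3 (chr17:36088256-36090143), CCL4 (chr17:36103827-36105614), CCL3L3 (chr17:36194869-36196758) and CCL4L2 (chr17:36211063-36212873) follow further along. CCL20 (chr2:227813842-227817556) and CCL22 (chr16:57357909-57366189) stand alone on other chromosomes.

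RefSeq promoter windows of 300 bases (GRCh38.p14) were at hand for 6 of the 10 genes, and CCL2, CCL4, CCL4L2 and CCL5 are named only. They were searched on both strands for 3 motifs of the pathways above. These were the kB consensus bound by NF-kB, the core of the interferon-stimulated response element (GAAA, 2 bases of any kind, GAAA), and the palindromic glucocorticoid response element (AGAACA, 3 bases of any kind, TGTTCT). Over 35116 windows of the same length, 11.3% held the kB consensus, 3.57% the interferon core and 0.00285% the glucocorticoid palindrome. Among the chemokines a match was found in the windows of CCL20 and CCL22, each to the kB consensus. These 2 windows are shown because they hold the matches. Capitals mark the kB matches. CCL20 (chr2:227813592-227813891, plus strand) has 1 match, read on the opposite strand, from 79 to 70 bases before the start site. CCL22 (chr16:57358533-57358832, plus strand) has 2 overlapping matches, each readable on both strands, between 186 and 176 bases before the start site of that transcript.
CCL20: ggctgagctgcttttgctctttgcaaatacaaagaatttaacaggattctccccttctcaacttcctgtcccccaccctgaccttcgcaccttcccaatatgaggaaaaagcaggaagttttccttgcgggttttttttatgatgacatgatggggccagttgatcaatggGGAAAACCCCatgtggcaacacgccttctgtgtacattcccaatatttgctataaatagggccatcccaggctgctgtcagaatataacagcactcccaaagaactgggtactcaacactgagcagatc
CCL22: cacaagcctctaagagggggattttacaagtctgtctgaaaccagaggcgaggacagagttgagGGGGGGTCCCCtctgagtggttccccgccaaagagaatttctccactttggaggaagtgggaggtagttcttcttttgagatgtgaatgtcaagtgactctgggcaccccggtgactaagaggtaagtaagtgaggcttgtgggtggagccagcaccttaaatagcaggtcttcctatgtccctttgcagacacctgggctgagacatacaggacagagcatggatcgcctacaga
The windows of CCL3, CCL3L3, CCL7 and CCL8 held none of the 3 letter patterns, which says only that these letters are not in those windows. A match is a description of sequence and not a measured binding site.

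With LPS, all 9 chemokines tested in RNA rose, from 10.6-fold for CCL2 to 212-fold for CCL4L2, and the median log2 fold change of the 9 was 5.46. Over all 13327 genes tested in RNA, 28.6% rose with LPS, 33.6% fell, and the median log2 fold change was -0.05. CCL8 and CCL22 had fewer than 10 counts in every vehicle RNA library, so they passed the filter through treated libraries, where they were high. CCL8 footprints, low with vehicle outside library 4, passed in the same way. Their places among the genes higher than vehicle are thus partly set by the filter. How many of all genes passed in that way was not counted. In footprints, 9 of 10 chemokines rose, against 25.4% of 12197 genes that rose and 27.2% that fell, and CCL7 did not pass. With the replicate number as a block, CCL7 passed as well, and 31.8% of genes rose. Without the libraries numbered 4, all 10 rose, against 31.5% of genes. The 10 genes together held 0.0400% ± 0.0050 (SD, n = 4) of all RNA counts with vehicle, 1.23% ± 0.09 with LPS and 0.812% ± 0.053 with LPS+Dex. In footprints these shares were 0.0798% ± 0.031 (SD, n = 5), 3.00% ± 0.73 and 2.22% ± 0.89. Library 4 was the highest of each group, at 0.136% with vehicle, 4.30% with LPS and 3.80% with LPS+Dex. The other footprint libraries ran from 0.0623% to 0.0681%, 2.59% to 2.81% and 1.80% to 1.86%.

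Dexamethasone given with LPS left a mixed picture within the family. Relative to LPS alone, 8 of 9 chemokines fell in RNA, against 15.4% of all genes that fell and 15.5% that rose, with a median log2 fold change of -0.90 for the 9 and 0.01 for all genes. The 9 count both copies of each near-identical pair. With each pair summed, 6 of 7 fell with dexamethasone in RNA, and 7 of 7 rose with LPS. CCL20 was the exception, and its value passed the test only in some settings. In footprints only CCL5 passed with all 15 libraries, TMM scaling and no block, against 7.99% of genes that fell and 9.08% that rose. With the replicate block 9 of 10 fell, against 14.8% of genes that fell and 16.1% that rose. Without the libraries numbered 4, the count was also 9 of 10, against 15.3% of genes. Compared with vehicle, 8 of 9 chemokines in RNA were higher with LPS+Dex (29.2% of all genes were higher and 31% lower). In footprints 8 of 10 were higher (24.4% of genes higher, 22% lower), 8 with the replicate block (31.3% of genes higher) and 9 without the libraries numbered 4 (30.8%). The comparisons with LPS alone and with vehicle share their LPS or LPS+Dex libraries, so they are not independent of each other.

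**Figure D1:**
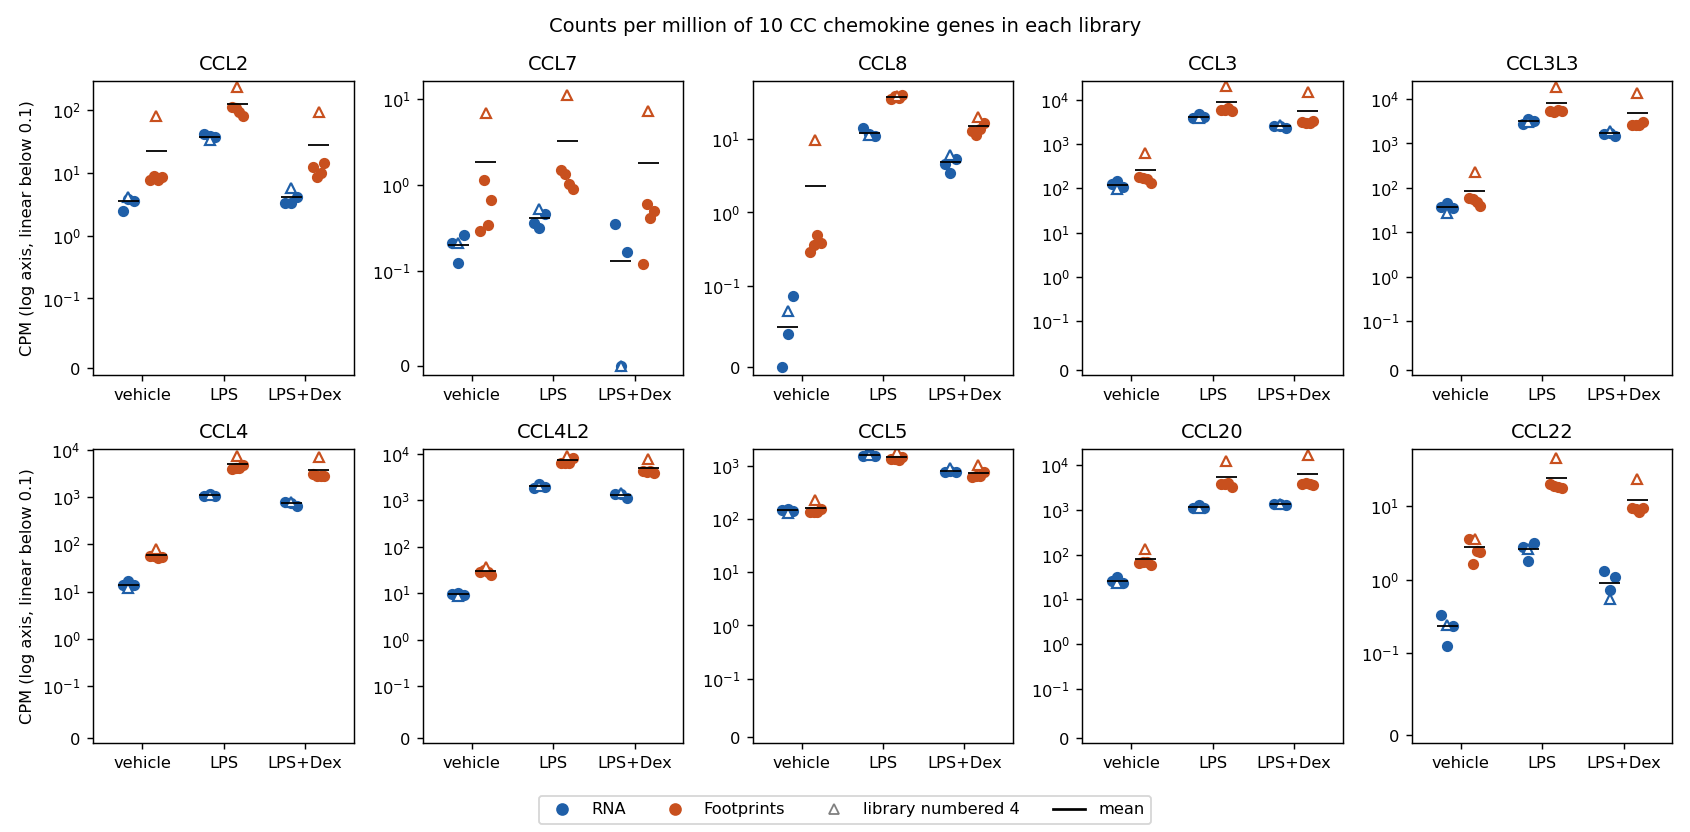
Level of each chemokine in every library, in CPM on an axis that is logarithmic above 0.1 and linear below it, by treatment; blue is RNA, orange is footprints, open triangles are the libraries numbered 4 and bars are means. The LPS points lie above the vehicle points for every gene except CCL7 footprints, and the footprint triangles stand above the circles for most genes.

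CCL2, CCL7 and CCL8 are ligands of the receptor CCR2. CCL2, also called MCP-1, attracts monocytes, and CCL7 and CCL8 are its close relatives. CCL2 RNA was 2.47, 3.80, 3.60 and 4.14 CPM with vehicle, 40.8, 38.5, 37.1 and 32.3 CPM with LPS and 3.27, 3.25, 4.12 and 5.61 CPM with LPS+Dex. The LPS libraries lay far above the vehicle libraries, and the LPS+Dex libraries overlapped the vehicle libraries. The rise with LPS had a log2 fold change of 3.40 ± 0.18 (SE, adjusted p = 1.31e-09), and the fall with dexamethasone one of -3.20 ± 0.18 (adjusted p = 1.38e-08). LPS+Dex against vehicle gave 0.20 ± 0.19 (adjusted p = 0.371), which did not pass.

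CCL2 footprints, in the order of replicates 1 to 5, were 7.57, 8.82, 7.73, 78.0 and 8.56 CPM with vehicle, 109, 106, 93.0, 227 and 80.4 CPM with LPS and 12.4, 8.46, 9.84, 90.5 and 14.0 CPM with LPS+Dex. Library 4 was the highest of each treatment, and vehicle library 4 reached almost the level of the lowest LPS library. The LPS and vehicle groups did not overlap, and LPS+Dex overlapped both. With all libraries CCL2 footprints rose with LPS (log2 2.50 ± 0.82, adjusted p = 0.0188), by 3.91 without vehicle library 4 and by 2.16 without LPS library 4. The difference under dexamethasone was -2.19 ± 0.81 (adjusted p = 0.0825) with all libraries. It was -2.80 ± 0.26 (adjusted p = 3.43e-07) with the replicate block and -3.10 ± 0.13 (adjusted p = 6.29e-15) without the libraries numbered 4. Without vehicle library 4 alone it passed (-2.19, adjusted p = 0.0174). Without LPS+Dex library 4 alone it was -3.45 (adjusted p = 0.00349). Without LPS library 4 alone it was -1.85 (adjusted p = 0.145). Against vehicle, LPS+Dex footprints differed by 0.30 ± 0.79 with all libraries and by 0.46 ± 0.14 without those numbered 4 (adjusted p = 0.00580), and by 1.72 without vehicle library 4 alone (adjusted p = 0.0410), so CCL2 footprints passed as higher only in the latter settings.

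CCL7, or MCP-3, was near the limit of detection in RNA, with 5, 3, 9 and 6 counts with vehicle, 8, 6, 10 and 12 with LPS and 7, 0, 3 and 0 with LPS+Dex, and it was not tested there. As CPM, its RNA was higher in every LPS library than in every vehicle library, and LPS+Dex overlapped both. Its footprints were 0.290, 1.13, 0.338, 6.89 and 0.666 CPM with vehicle, 1.48, 1.34, 1.03, 11.2 and 0.902 CPM with LPS and 0.120, 0.595, 0.413, 7.25 and 0.490 CPM with LPS+Dex. Library 4 held most of the summed level in each treatment, and all 3 groups overlapped. With all libraries no comparison passed, and the log2 difference with LPS was 0.86 ± 1.11 (adjusted p = 0.546). The replicate block gave a rise of 0.95 ± 0.30 with LPS (adjusted p = 0.0108) and a fall with dexamethasone of -1.25 ± 0.32 (adjusted p = 0.00667). Without the libraries numbered 4 these were 0.97 ± 0.40 (adjusted p = 0.0366) and -1.55 ± 0.44 (adjusted p = 0.00941).

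CCL8, or MCP-2, was almost absent with vehicle. Its RNA counts were 0, 1, 3 and 2 in the 4 vehicle libraries. RNA levels were 14.1, 11.9, 10.9 and 11.5 CPM with LPS and 4.58, 3.44, 5.42 and 6.05 CPM with LPS+Dex, and the 3 groups did not overlap. The fitted rise with LPS was 7.68 ± 0.31 (adjusted p = 8.19e-11), a size that rests on those few vehicle counts. The fall with dexamethasone was -1.32 ± 0.18 (adjusted p = 4.90e-05).

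CCL8 footprints were 0.290, 0.363, 0.488, 9.88 and 0.380 CPM with vehicle, 35.2, 38.9, 35.9, 39.2 and 40.5 CPM with LPS and 12.9, 11.3, 13.8, 19.8 and 16.8 CPM with LPS+Dex. Vehicle library 4 was 26.6 times the median of the other vehicle libraries, whereas LPS library 4 lay within the range of its group. The rise with LPS was 4.29 ± 0.78 with all libraries and 6.62 without vehicle library 4. The LPS+Dex libraries lay between the other groups without overlap. The difference with dexamethasone was -1.35 ± 0.66 (adjusted p = 0.204) with all libraries, -1.42 ± 0.39 (adjusted p = 0.0111) with the block and -1.46 ± 0.10 (adjusted p = 9.22e-11) without the libraries numbered 4. It also passed without vehicle library 4 alone (adjusted p = 4.89e-06).

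CCL3 (MIP-1 alpha), CCL4 (MIP-1 beta) and CCL5 (RANTES) attract monocytes, T cells and other leukocytes, and CCL3L3 and CCL4L2 are their extra copies. CCL3 RNA was 126, 149.9, 109 and 97.8 CPM with vehicle, 3880.4, 4733, 4162 and 3875 CPM with LPS and 2525, 2527, 2276 and 2674 CPM with LPS+Dex. CCL3L3 RNA was 36.6, 46.6, 34.4 and 27.4 CPM with vehicle, 2805, 3488, 3171 and 3105 CPM with LPS and 1647, 1698, 1483 and 1887 CPM with LPS+Dex. For both genes the 3 groups did not overlap, with LPS+Dex between vehicle and LPS. The LPS rise was 5.11 ± 0.14 for CCL3 and 6.44 ± 0.16 for CCL3L3, and the fall with dexamethasone -0.74 ± 0.11 (adjusted p = 2.09e-04) and -0.90 ± 0.13 (adjusted p = 9.00e-05).

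CCL3 footprints were 181, 172, 160.4, 642 and 135 CPM with vehicle, 6020.0, 5925, 6450.4, 20356 and 5739 CPM with LPS and 3165, 3056, 3046, 15236 and 3393 CPM with LPS+Dex. CCL3L3 footprints were 58.4, 56.8, 49.3, 230.2 and 39.7 CPM with vehicle, 5312, 5199.5, 5565, 18393 and 5359 CPM with LPS and 2580.0, 2582, 2620.3, 13533 and 2974 CPM with LPS+Dex. Library 4 was 3 to 5 times the others for both genes in each treatment, so LPS+Dex library 4 lay above the LPS libraries other than LPS library 4. Vehicle did not overlap either treated group. The rise with LPS was 5.11 ± 0.70 for CCL3 and 6.52 ± 0.78 for CCL3L3, and without vehicle library 4 it was 5.78 and 7.29. The difference with dexamethasone for CCL3 was -0.67 ± 0.59 (adjusted p = 0.533) with all libraries, -0.83 ± 0.088 (adjusted p = 1.43e-06) with the block and -0.93 ± 0.070 without the libraries numbered 4. For CCL3 it was -1.49 (adjusted p = 0.0498) without LPS+Dex library 4 alone and -0.11 (adjusted p = 0.913) without LPS library 4 alone. For CCL3L3 it was -0.71 ± 0.62 (adjusted p = 0.529), -0.89 ± 0.10 (adjusted p = 3.90e-06) and -0.99 ± 0.081 in the same 3 settings. Without LPS+Dex library 4 alone it was -1.57 (adjusted p = 0.0535), and without LPS library 4 alone -0.14 (adjusted p = 0.897).

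CCL4 RNA was 13.6, 16.8, 13.5 and 12.1 CPM with vehicle, 1046, 1176, 1087 and 1095 CPM with LPS and 813, 770.1, 656 and 806 CPM with LPS+Dex. CCL4L2 RNA was 9.47, 10.2, 9.31 and 8.89 CPM with vehicle, 1857, 2227, 1912 and 2041 CPM with LPS and 1326, 1327, 1137 and 1401 CPM with LPS+Dex. The groups did not overlap for either gene, and LPS+Dex lay nearer to LPS than to vehicle. CCL4 rose by 6.30 ± 0.12 and CCL4L2 by 7.73 ± 0.11 with LPS. The falls with dexamethasone, -0.53 ± 0.092 (adjusted p = 4.90e-04) and -0.63 ± 0.078 (adjusted p = 2.42e-05), were the smallest of the 8 that passed in RNA.

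CCL4 footprints were 55.8, 57.6, 51.5, 81.6 and 53.1 CPM with vehicle, 3945, 4247, 4198, 7721 and 4928 CPM with LPS and 3059, 2826, 2829, 7227 and 2863 CPM with LPS+Dex. CCL4L2 footprints were 29.2, 32.0, 28.3, 37.4 and 24.4 CPM with vehicle, 6141, 6414, 6272, 8888 and 7839 CPM with LPS and 4262, 3941, 4119.9, 7689.5 and 3872 CPM with LPS+Dex. LPS+Dex library 4 lay inside the range of the LPS libraries for both genes, and the other LPS+Dex libraries lay below that range. With LPS, CCL4 footprints rose by 6.39 ± 0.35 and CCL4L2 footprints by 7.88 ± 0.27. The difference with dexamethasone for CCL4 was -0.41 ± 0.28 (adjusted p = 0.386) with all libraries and -0.47 ± 0.097 (adjusted p = 0.00121) with the block. For CCL4L2 it was -0.57 ± 0.20 (adjusted p = 0.0611) and -0.61 ± 0.100 (adjusted p = 1.46e-04). Without LPS+Dex library 4 alone, they were -0.79 (adjusted p = 0.00936) and -0.81 (adjusted p = 8.06e-04). Without LPS library 4 alone, they were -0.20 (adjusted p = 0.644) and -0.48 (adjusted p = 0.116).

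CCL5, unlike its neighbours in this group, has no second copy among the 10 genes. Its RNA was 153, 160.3, 144 and 132 CPM with vehicle, 1548, 1827, 1589 and 1644 CPM with LPS and 781, 827, 769 and 946 CPM with LPS+Dex. Its footprints were 139.5, 139, 141, 235 and 155 CPM with vehicle, 1349.5, 1373, 1345, 1869 and 1489 CPM with LPS and 641, 669.5, 655, 1045 and 770.1 CPM with LPS+Dex. In both assays the 3 treatments did not overlap, library 4 included. RNA rose by 3.49 ± 0.093 with LPS and fell with dexamethasone, with a log2 fold change of -0.99 ± 0.085 (adjusted p = 6.83e-07). Footprints rose by 3.20 ± 0.19 (adjusted p = 3.51e-09), and their log2 fold change of -0.97 ± 0.18 with dexamethasone (adjusted p = 0.00104) was the only one of the 10 that passed with all 15 libraries, TMM scaling and no block.

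CCL20 and CCL22 act on lymphocytes. CCL20, the ligand of CCR6, attracts Th17 cells and immature dendritic cells. CCL20 RNA was 26.2, 31.8, 23.3 and 23.3 CPM with vehicle, 1132, 1293, 1095 and 1082 CPM with LPS and 1352, 1389, 1299.6 and 1368 CPM with LPS+Dex. All 4 LPS+Dex libraries lay above all 4 LPS libraries. The log2 difference was 0.23 ± 0.092 (adjusted p = 0.0704), which did not pass. It passed without vehicle library 2 (adjusted p = 0.0167) and without LPS library 2 (0.29, adjusted p = 0.0277). The rise with LPS was 5.46 ± 0.11 (adjusted p = 1.15e-13).

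CCL20 footprints were 66.2, 68.1, 68.3, 131 and 59.7 CPM with vehicle, 3737, 3733, 4089.8, 12249.9 and 3254 CPM with LPS and 3909, 4033, 3840.0, 16766 and 3552 CPM with LPS+Dex. Libraries 1, 2, 3 and 5 with LPS+Dex overlapped those with LPS, and library 4 was about 3 or 4 times higher in both treatments. The rise with LPS was 6.11 ± 0.61. The difference with dexamethasone was 0.25 ± 0.49 (adjusted p = 0.828) with all libraries, 0.15 ± 0.12 (adjusted p = 0.418) with the block and 0.054 ± 0.064 (adjusted p = 0.571) without the libraries numbered 4. Its sign turned when LPS+Dex library 4 was left out (-0.50).

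CCL22, the ligand of CCR4, attracts Th2 and regulatory T cells. CCL22 RNA was low, at 0.335, 0.124, 0.232 and 0.241 CPM with vehicle, 2.75, 1.77, 3.16 and 2.63 CPM with LPS and 1.31, 0.717, 1.08 and 0.545 CPM with LPS+Dex, and the vehicle values rest on 8, 3, 8 and 7 counts. The LPS libraries lay above all others, and the LPS+Dex libraries lay between. CCL22 rose by 3.44 ± 0.31 with LPS (adjusted p = 3.94e-07) and fell under dexamethasone, with a log2 fold change of -1.49 ± 0.27 (adjusted p = 6.39e-04). CCL22 footprints were 3.58, 1.65, 2.44, 3.62 and 2.41 CPM with vehicle, 20.2, 18.5, 18.0, 44.4 and 17.6 CPM with LPS and 9.28, 9.25, 8.27, 23.3 and 9.32 CPM with LPS+Dex. LPS+Dex library 4 lay above 4 of the 5 LPS libraries, the one overlap between treatments. Footprints rose by 3.12 ± 0.37 with LPS. With dexamethasone the difference was -0.999 ± 0.33 (adjusted p = 0.0539) with all libraries and -1.01 ± 0.13 (adjusted p = 1.26e-05) with the block. It was -1.39 (adjusted p = 0.00254) without LPS+Dex library 4 alone and -0.65 (adjusted p = 0.136) without LPS library 4 alone.

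**Figure D2:**
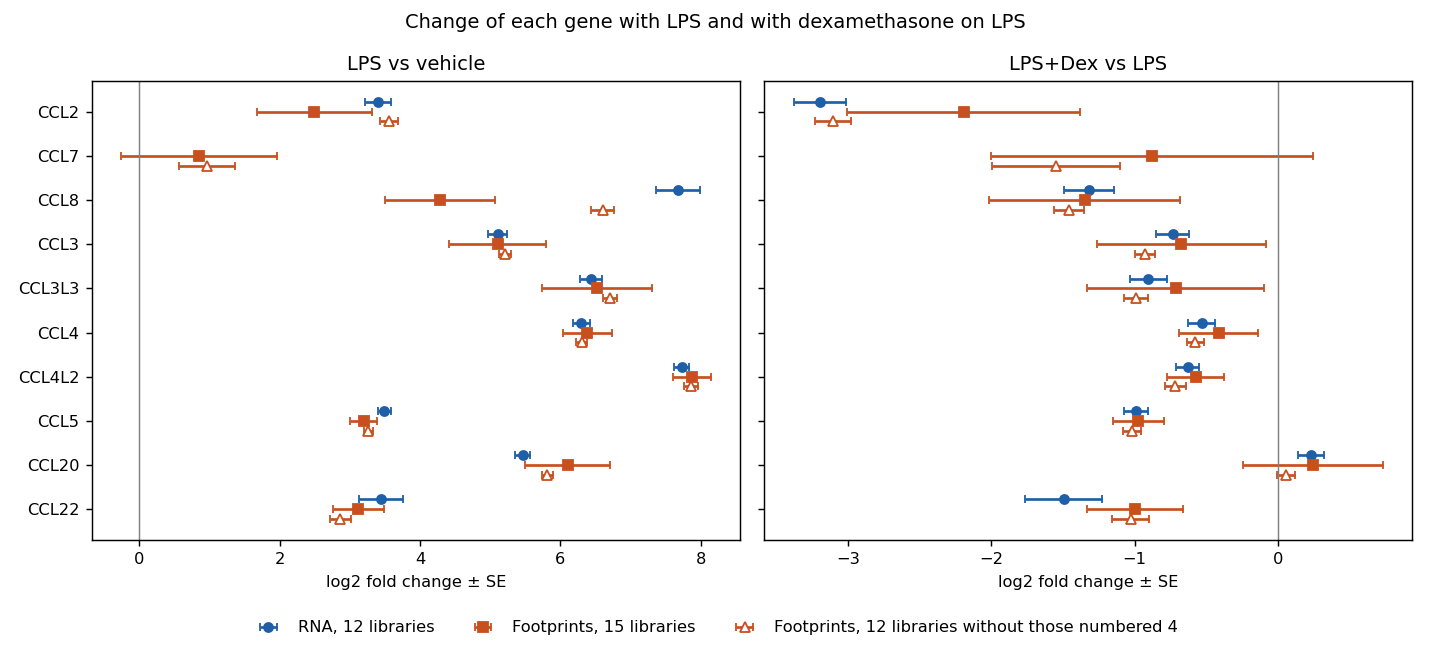
Log2 fold change with its standard error for LPS against vehicle (left) and LPS+Dex against LPS (right); blue circles are RNA, filled orange squares are all 15 footprint libraries and open orange triangles are the 12 without those numbered 4. Bars of the squares are wide for CCL2, CCL3, CCL3L3, CCL7, CCL8 and CCL20 and narrowest for CCL5. CCL20 is the one gene at or above 0 on the right.

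Against vehicle, the chemokines that stayed called with LPS+Dex in RNA had log2 fold changes of 1.95 ± 0.36 for CCL22, 2.50 ± 0.089 for CCL5, 4.37 ± 0.13 for CCL3, 5.53 ± 0.16 for CCL3L3, 5.70 ± 0.11 for CCL20, 5.77 ± 0.11 for CCL4, 6.36 ± 0.34 for CCL8 and 7.10 ± 0.10 for CCL4L2. CCL2 was the one tested chemokine whose LPS+Dex level did not pass as different from vehicle. In footprints the same 8 passed, from 2.12 ± 0.36 for CCL22 and 2.22 ± 0.18 for CCL5 to 7.30 ± 0.26 for CCL4L2. CCL8 footprints moved from 2.94 ± 0.76 with all libraries to 5.27 without vehicle library 4. CCL3 footprints moved from 4.43 ± 0.67 to 3.62 without LPS+Dex library 4 and 5.10 without vehicle library 4, and CCL3L3 footprints from 5.81 ± 0.76 to 4.96 and 6.57. CCL20 footprints moved from 6.35 ± 0.61 to 5.61 without LPS+Dex library 4.

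The part of the LPS rise that was still present with dexamethasone ordered the genes. This is the mean of LPS+Dex minus vehicle, as a percentage of LPS minus vehicle, given as a description. In RNA it was 1.67% for CCL2, with single LPS+Dex libraries from -0.740% to 6.27%. CCL22 kept 29.1%, with libraries from 13.3% to 45.9%. CCL8 kept 40.0% (28.2% to 49.8%) and CCL5 45.4% (41.3% to 53.1%). The ranges of CCL22, CCL8 and CCL5 overlapped, as did those of neighbours in the MIP-1 group. That group had 52.9% for CCL3L3, 58.9% for CCL3, 64.4% for CCL4L2 and 68.7% for CCL4. CCL20 was at 118%, with libraries from 113% to 121%, and CCL2 and CCL20 were the only genes whose ranges met no other. CCL7 is left out because its RNA was not tested.

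Footprints without the libraries numbered 4 gave a like picture. CCL2 kept 3.40%, CCL8 35.8%, CCL22 40.6%, CCL5 43.4% and CCL20 104%. With all 15 libraries the CCL3 value was 61.6% in place of 51.1%, and the single LPS+Dex libraries ran from 32.3% to 173%. For CCL3L3 they ran from 31.6% to 171%, so with all libraries the spread exceeded the gaps between most genes.

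**Figure D3:**
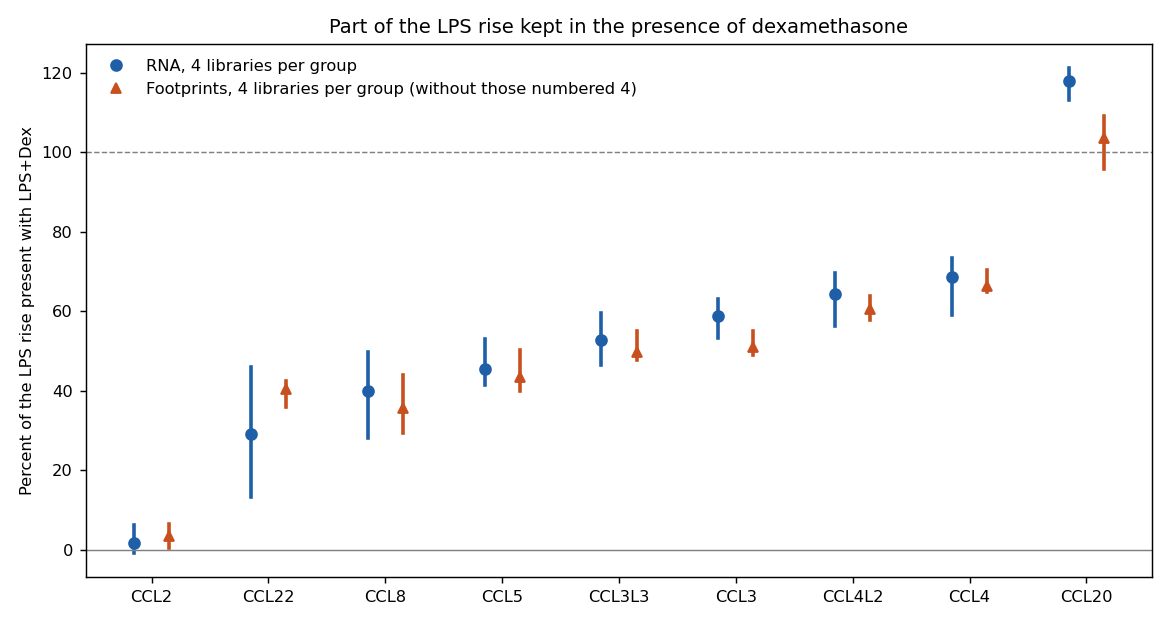
Percent of the LPS rise that was present with LPS+Dex, by gene, for RNA (blue, 4 libraries per group) and footprints (orange, 4 libraries per group without those numbered 4); points are ratios of means and lines run from the lowest to the highest LPS+Dex library. The CCL2 points lie near 0 and the CCL20 points above 100, and the CCL20 footprint line runs from 95.8 to 109.

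Within each pair of copies, the split of assigned reads differed between treatments. This measure was chosen after its values were seen, so it is given as a description with no test. CCL3L3 took 22.5, 23.7, 24.0 and 21.9% of the CCL3 and CCL3L3 RNA counts with vehicle, 42.0, 42.4, 43.2 and 44.5% with LPS and 39.5, 40.2, 39.5 and 41.4% with LPS+Dex. The 3 groups did not overlap in RNA, and vehicle was the lowest. In footprints the CCL3L3 share was 24.4% ± 1.38 (SD, n = 5) with vehicle, 47.1% ± 0.765 with LPS and 46.1% ± 0.834 with LPS+Dex. Vehicle overlapped neither treated group, and the treated groups overlapped each other.

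CCL4L2 took 40.5% ± 1.90 (SD, n = 4) of the CCL4 and CCL4L2 RNA counts with vehicle, 64.6% ± 0.821 with LPS and 63.0% ± 0.713 with LPS+Dex, and the 3 groups did not overlap. In footprints the shares were 33.7% ± 2.09 (SD, n = 5), 59.2% ± 3.22 and 57.0% ± 3.09, and library 4 was the lowest of the LPS and the LPS+Dex group. Vehicle lay below both treated groups, which overlapped each other. How reads that match both copies were treated is not known here, so the shares describe assigned reads and not the true balance of the copies.

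**Figure D4:**
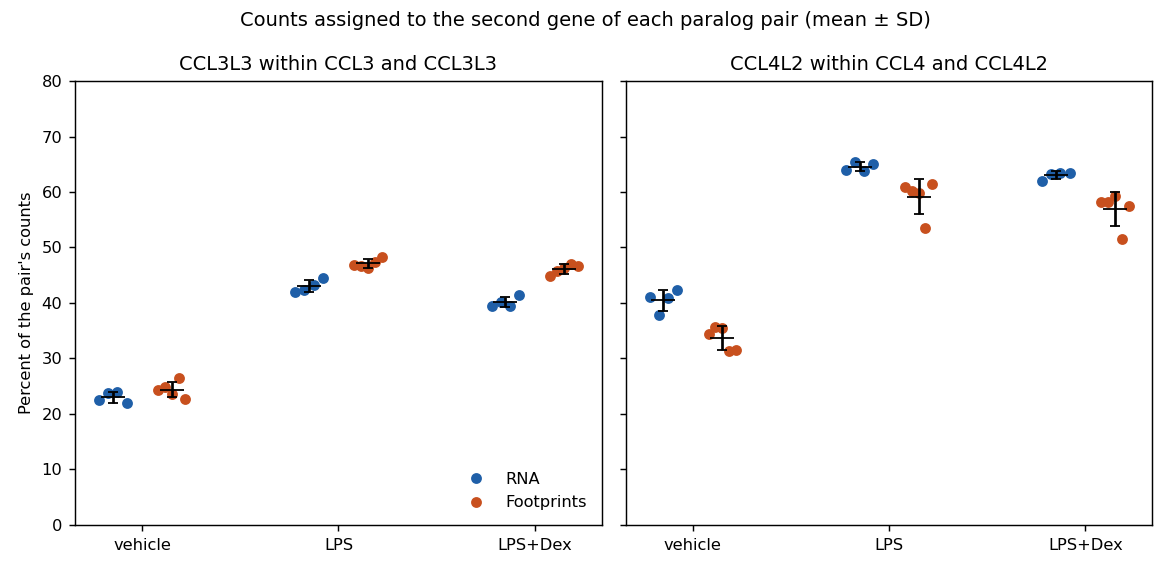
Percent of a pair's counts assigned to CCL3L3 (left) and CCL4L2 (right) in each library, with the mean and SD of each group; blue is RNA and orange is footprints. Vehicle libraries lie below all treated libraries in both assays.

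Translational efficiency, the footprint change minus the RNA change, was tested for all 10 chemokines in 1 fit over 27 libraries. None passed by edgeR's quasi-likelihood test for LPS against vehicle, where 1.51% of 13679 genes did, or for LPS+Dex against LPS, where 0.0366% did. With the replicate block the shares were 6.58% and 0.519% of genes, and again no chemokine passed. Of the 207 genes that passed with LPS, 135 were higher, and with DESeq2 233 of 449 were. DESeq2 called none of the chemokines in either comparison and gave no adjusted p for 2 of them. By edgeR's quasi-likelihood test 1 chemokine had an unadjusted p under 0.05 with LPS, CCL8, and 0 had one with dexamethasone. CCL8 had a log2 difference of -3.29 ± 1.38 (adjusted p = 0.324), -1.15 ± 0.60 without the libraries numbered 4 (adjusted p = 0.359). It passed when RNA and footprints of the same number and treatment were blocked together (-3.64 ± 0.60, adjusted p = 0.0191). The labels do not say that such libraries share a culture, and after removal of treatment means they correlated above 0.1 in 1 of 12 cases. The RNA side of that value holds 0 to 3 counts per vehicle library. The other chemokines lay between -0.87 ± 0.92 for CCL2 and 0.66 ± 0.54 for CCL20 with LPS, and with dexamethasone all 10 lay between -0.040 ± 0.78 for CCL8 and 0.97 ± 0.93 for CCL2. With all libraries and no block, the next to the threshold after CCL8 was CCL5 with LPS, at -0.26 ± 0.20 (adjusted p = 0.721). CCL20 with LPS was at 0.66 ± 0.54 (adjusted p = 0.751) in that fit. With the replicate block it was at 0.51 ± 0.16 (adjusted p = 0.0552). A p that misses the threshold does not show that translation of the others was unchanged: the standard errors with all libraries ran from 0.20 for CCL5 to 1.42 for CCL7 with LPS.

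For each chemokine tested in RNA, the gene outside the family whose log2 CPM followed it most closely over the 12 RNA libraries was found among 9899 genes. The libraries fall into 3 treatments, which every such value shares, so these values carry no p. CCL3 and CCL3L3 were both closest to RIPK2 (Pearson r = 0.999), a kinase of innate immune signalling, and CCL4 and CCL4L2 to GRAMD1A (0.999). CCL5 was closest to TNFSF13B (0.998), which encodes the B cell factor BAFF, and CCL8 to the interferon-induced gene IFIT1 (0.997). CCL20 was closest to EBI3 (0.998), a cytokine subunit. CCL2 was closest to P2RX7 (0.987), an ATP-gated channel, and CCL22 to GCLM (0.987), a subunit of the enzyme of glutathione synthesis. Over the 15 footprint libraries the same pairs had r from 0.864 for CCL5 to 0.993 for CCL4L2. The number of genes above 0.99 in RNA was 99 for CCL3, 95 for CCL3L3, 83 for CCL4, 79 for CCL4L2, 73 for CCL5, 67 for CCL8 and 39 for CCL20, and 0 for CCL2 and for CCL22.

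A further list held 17 other CC ligands, of which 16 were in the tables and 9 could be tested in RNA. With LPS 5 rose, CCL1, CCL14, CCL17, CCL18 and CCL19, and 2 fell, CCL21 and CCL28. Of all genes tested in RNA, 28.6% rose and 33.6% fell. CCL19, which guides dendritic cells through CCR7, had the largest rise, from 0.451 ± 0.168 CPM (SD, n = 4) to 7.54 ± 1.03 CPM, and a log2 fold change of 4.03 ± 0.23. With dexamethasone it was 1.52 ± 0.362 CPM, the largest fall of the list, with a log2 fold change of -2.30 ± 0.21 (adjusted p = 1.15e-06). CCL17, the other CCR4 ligand beside CCL22, moved the other way: it was 0.350 ± 0.114 CPM with LPS and 1.57 ± 0.105 CPM with LPS+Dex, a rise of 2.13 ± 0.27 (adjusted p = 3.23e-05), from 4 to 11 counts per LPS library. CCL28, a mucosal chemokine, fell with LPS, with a log2 fold change of -1.74 ± 0.42. Under dexamethasone CCL14, CCL17 and CCL23 rose and CCL1 and CCL19 fell in RNA, and CCL17 rose and CCL1 and CCL19 fell in footprints. Of all tested genes, 15.5% rose and 15.4% fell in RNA, and 9.08% rose and 7.99% fell in footprints. With the replicate block CCL23 also rose and CCL24 also fell in footprints, where 16.1% of genes rose and 14.8% fell. In footprints with LPS, 7 of 10 rose and 2 fell, against 25.4% and 27.2% of all tested genes. Genes beyond CCL17, CCL19 and CCL28 are named after their values were seen.

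Of 14 CC receptors, 5 were tested in RNA. With LPS CCR7 and CCRL2 rose and CCR1 and CCR2 fell, against 28.6% of all tested genes that rose and 33.6% that fell. With dexamethasone 0 rose and 3 fell, CCR1, CCR7 and CCRL2, against 15.5% and 15.4% of all tested genes. CCR1 and CCRL2 are named after their values were seen. CCR7, which guides dendritic cells and T cells to lymph nodes, went from 0.363 ± 0.170 CPM (SD, n = 4) with vehicle to 16.0 ± 1.34 CPM with LPS, a log2 fold change of 5.40 ± 0.30. It was 3.53 ± 1.48 CPM with LPS+Dex, a log2 fold change of -2.19 ± 0.23 (adjusted p = 5.36e-06), and its footprints fell too (-2.23 ± 0.51, adjusted p = 0.00587). CCR2, the receptor for CCL2, CCL7 and CCL8, fell from 2.63 ± 0.671 CPM to 0.308 ± 0.0889 CPM with LPS (-3.08 ± 0.28). With dexamethasone CCR2 did not pass in RNA (0.27 ± 0.38), and in footprints the value was 1.43 ± 0.54 (adjusted p = 0.0862) with all libraries and 1.40 ± 0.35 (adjusted p = 0.00487) with the replicate block. In footprints CCR7 was the 1 of 6 tested receptors that passed with dexamethasone, where 9.08% of all tested genes rose and 7.99% fell. With the block CCR2 passed as higher and CCR1, CCR7 and CCRL2 as lower, where 16.1% of genes rose and 14.8% fell.

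The list of regulators of chemokine transcription and mRNA decay held 31 genes, all tested. In RNA 22 rose and 5 fell with LPS, against 28.6% of all tested genes that rose and 33.6% that fell. With dexamethasone 7 rose and 9 fell in RNA, against 15.5% and 15.4% of all tested genes. In footprints 21 rose and 6 fell with LPS, against 25.4% and 27.2% of all tested genes. With dexamethasone 8 rose and 6 fell in footprints, against 9.08% and 7.99% of all tested genes. With the replicate block these were 11 and 10, against 16.1% and 14.8%. IFNB1, the gene of interferon beta, rose most with LPS, from 0.0172 ± 0.0345 CPM (0 to 2 counts per library) to 4.09 ± 1.50 CPM (adjusted p = 4.27e-08), and with so few vehicle counts no fold is given. It fell with dexamethasone in RNA (-0.94 ± 0.28, adjusted p = 0.0202). ZFP36L1, an mRNA decay factor that binds AU-rich elements, fell most with LPS (-2.34 ± 0.14) and rose with dexamethasone (1.17 ± 0.13). TSC22D3, a known glucocorticoid receptor target, rose most with dexamethasone, by 4.12 ± 0.17 in RNA and 4.32 ± 0.17 in footprints. TLR4, the LPS receptor, fell most with dexamethasone (-1.85 ± 0.20, adjusted p = 7.34e-06). That these regulators moved in the same cells says nothing on whether they act on the chemokine genes, which was not tested.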

How the data were processed

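RNA-seq and ribosome profiling libraries of THP-1 cells were analysed from 2 tables of raw read counts per Ensembl gene that the authors deposited, 1 per assay. Per the submitters' processing notes, the tools for RNA were STAR 2.7.10a, featureCounts 2.0.1 and DESeq2 1.26.0 on GRCh38, and those for footprints also included Bowtie2 2.4.5. Which feature and strand were counted, and how reads with several matches were treated, is not given in the sources used here, so reads of overlapping genes may be shared. Tests used edgeR 4.0.16 under R 4.3.3, with filterByExpr (minimum count 10, minimum total 15), TMM scaling and the quasi-likelihood F test with Benjamini-Hochberg adjustment over all genes tested, called at an adjusted p under 0.05. RNA (12 libraries) and footprints (15) were fitted separately, and translational efficiency as an interaction over all 27. Scaling makes changes relative to the average gene. DESeq2 1.42.0 and other settings served as alternatives. Log2 CPM for likeness used a prior count of 2, over genes averaging 5 CPM or more.

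The named genes are the 10 chemokines, the called gene with the largest rise and fall in RNA of 3 further lists, and the gene most like each chemokine. The members and lists were chosen with earlier results of these data known. No 2 libraries held identical values. Same-numbered footprint libraries correlated above 0.1, after treatment means were removed, in 15 of 15 pairs (34 of 60 pairs of different number), so the block was fitted beside. Without the libraries numbered 4, it was 3 of 12 pairs (2 of 36 of different number). In RNA it was 7 of 12 (13 of 36 of different number), and without the libraries numbered 4 it was 6 of 9 (5 of 18). The numbers were not taken to pair the RNA libraries, so the RNA block is given only among the other settings.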

Additional observations from a re-analysis of the deposited data

Results flagged for a closer look

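Of 60 groups of 4 or 5 libraries checked (10 genes, 3 treatments, 2 assays), 24 held a library far from the rest by Dixon's criterion. In all 24 it was the footprint library numbered 4, and it was the highest. The criterion is set to mark about 1 in 20 groups that are independent of each other. These groups are not, as the 10 genes share their libraries. It was applied to the chemokines alone, so the share of all genes it would mark is not known here. Values are given beside the range of the other 4 libraries. CCL2 in library 4 was at 78.0 CPM with vehicle against 7.57 to 8.82, 227 CPM with LPS against 80.4 to 109 and 90.5 CPM with LPS+Dex against 8.46 to 14.0. CCL3 in library 4 was at 642 CPM with vehicle against 135 to 181, 20356 CPM with LPS against 5739 to 6450.4 and 15236 CPM with LPS+Dex against 3046 to 3393. CCL3L3 in library 4 was at 230.2 CPM with vehicle against 39.7 to 58.4, 18393 CPM with LPS against 5199.5 to 5565 and 13533 CPM with LPS+Dex against 2580.0 to 2974. CCL4 in library 4 was at 81.6 CPM with vehicle against 51.5 to 57.6, 7721 CPM with LPS against 3945 to 4928 and 7227 CPM with LPS+Dex against 2826 to 3059. CCL4L2 in library 4 was at 7689.5 CPM with LPS+Dex against 3872 to 4262. CCL5 in library 4 was at 235 CPM with vehicle against 139 to 155 and 1869 CPM with LPS against 1345 to 1489. CCL7 in library 4 was at 6.89 CPM with vehicle against 0.290 to 1.13, 11.2 CPM with LPS against 0.902 to 1.48 and 7.25 CPM with LPS+Dex against 0.120 to 0.595. CCL8 in library 4 was at 9.88 CPM with vehicle against 0.290 to 0.488. CCL20 in library 4 was at 131 CPM with vehicle against 59.7 to 68.3, 12249.9 CPM with LPS against 3254 to 4089.8 and 16766 CPM with LPS+Dex against 3552 to 4033. CCL22 in library 4 was at 44.4 CPM with LPS against 17.6 to 20.2 and 23.3 CPM with LPS+Dex against 8.27 to 9.32. The RNA libraries numbered 4 gave no such value for any of the 10 genes. What sets these footprint libraries apart was not tested.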

How the results depend on the processing

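No called chemokine reversed under any setting in RNA, and its counts of called chemokines stayed within 1 of those given, apart from CCL3 with CCL3L3 and CCL4 with CCL4L2 summed, which leaves 7 genes. The RNA replicate block called CCL20 higher with dexamethasone (0.24, adjusted p = 0.0140), 9 chemokines in all, against 4858 of 13327 genes. Same-numbered RNA libraries were not taken as pairs, and the footprint block changed no other call than those given. Genes called with dexamethasone in footprints were 2083 of 12197, 2076 with DESeq2-style size factors, 2505 with DESeq2 and 3769 with the replicate block. Without the libraries numbered 4 they were 3855 of 12233. Chemokines called were 2 with DESeq2-style size factors, 4 with DESeq2, 9 with the block and 9 without those libraries. DESeq2 gave no adjusted p for CCL3, CCL3L3, CCL7, CCL8 and CCL20 in footprints, so it called 5 with LPS and 4 for LPS+Dex against vehicle. Over all 12197 genes it called 6660 and 5963 in these 2 comparisons. Genes with a changed translational efficiency numbered 207 with LPS (449 with DESeq2, 900 with the block, 541 without libraries 4, 76 with a block for each number and treatment over both assays, which the labels do not call a pair) and 5 with dexamethasone (24, 71, 32 and 1). The block over both assays called 1 chemokine with LPS.

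Leaving out each library in turn, genes called ran in RNA from 7727 to 8330 (LPS), 3304 to 4565 (dexamethasone) and 7333 to 8195 (LPS+Dex against vehicle), in footprints from 5959 to 6892, 1748 to 2370 and 5094 to 6044, and for efficiency from 128 to 299 and 4 to 12. Chemokines called with dexamethasone in footprints ran from 1 to 6. Some uncalled values changed sign with 1 library left out. In footprints these were CCL7 -0.52 to 2.35 with LPS, CCL20 -0.50 to 0.79 and CCL7 -2.93 to 0.50 with dexamethasone, and CCL2 -0.95 to 1.72 and CCL7 -2.06 to 1.48 for LPS+Dex against vehicle. For efficiency they were CCL2 -1.17 to 0.53, CCL3 -0.50 to 0.69, CCL3L3 -0.42 to 0.87, CCL4 -0.064 to 0.25 and CCL7 -1.43 to 1.36 with LPS, and CCL2 -0.23 to 1.29, CCL3 -0.72 to 0.58, CCL3L3 -0.63 to 0.72, CCL4 -0.24 to 0.30, CCL4L2 -0.16 to 0.12, CCL5 -0.11 to 0.093, CCL7 -1.25 to 2.07, CCL8 -0.18 to 0.079 and CCL20 -0.70 to 0.52 with dexamethasone. The sign of uncalled efficiency values with dexamethasone also changed with DESeq2-style size factors (CCL5 -0.0095, CCL20 -0.018), DESeq2 (CCL5 -0.0095, CCL20 -0.018), the block (CCL3 -0.10, CCL5 -0.0014, CCL20 -0.096), the block over both assays (CCL3 -0.12, CCL20 -0.11; with LPS CCL7 0.036) and without libraries 4 (CCL3 -0.13, CCL3L3 -0.021, CCL4 -0.014, CCL4L2 -0.054, CCL7 -0.43, CCL8 0.0054 and CCL20 -0.15; with LPS CCL2 0.073 and CCL7 0.16). The cause was not tested. Depth limits CCL7, CCL8 with vehicle and CCL22. The measures of rise kept and pair share without libraries 4 were added after seeing the data.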
